A study of Saccharomyces cerevisiae with 18 samples.

Results

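The 6 heat shock genes HSP12, HSP26, HSP30, HSP42, HSP78 and HSP104 of budding yeast were followed across 3 strains and 2 glucose levels. They were chosen by name, and each was read by 1 probe set among 5449 measured genes. RNA from Saccharomyces cerevisiae was hybridized to 18 Affymetrix arrays, with 3 arrays in each of 6 groups that the labels call biological replicates. All strains lacked chromosomal SNF1, which encodes the yeast counterpart of AMPK, the AMP-activated protein kinase of mammals, and carried a plasmid. The Alpha1 strain carried HA-Alpha1, which joins the catalytic domain of the AMPK Alpha1 subunit to the Snf1 regulatory domain. The T210A strain carried HA-T210A, a Snf1 in which the activation site Thr210 is Ala, and the reference strain (Snf1) carried HA-Snf1. Cells were grown with air in bioreactors of 1 litre at 30 °C and pH 5.0 from 40 g/L glucose, with no heat treatment in the labels. Each strain was sampled at 5 g/L (low) and at 15 to 20 g/L (high) glucose. The labels call the samples steady-state ones, although both levels lie below the starting glucose, and they do not say whether low and high samples of a replicate number came from the same culture. Glucose level and stage of the culture at sampling cannot be told apart here, and the term glucose response covers both.

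Heat shock proteins keep other proteins folded or recover them from aggregates. Many, but not all, of their genes in yeast are switched on by the heat shock factor Hsf1 or by the stress activators Msn2 and Msn4. Many of them also rise without heat when glucose runs short. Protein kinase A holds Msn2 and Msn4 back while glucose is plentiful, and Snf1 is known to act on both Hsf1 and Msn2. Among the members, Hsp12 is a small membrane-associated protein and Hsp30 a plasma membrane protein that restrains the proton pump Pma1. Hsp26 and Hsp42 are small heat shock proteins that hold unfolded proteins, and Hsp104 and Hsp78 are ring-shaped ATPases that pull proteins out of aggregates, in the cytosol and in the mitochondrial matrix.

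Signals are log2 values, so a difference of 1 is a doubling, and signals of different probe sets are not compared with each other. The SNF1 probe set read 12.30 to 13.17 on the Alpha1 arrays, 6.93 to 9.52 on the T210A arrays and 7.06 to 8.74 on the Snf1 arrays, and since it may read transcripts of the plasmids it does not test the deletion. In differences of Alpha1 from the other strains, its higher SNF1 signal and its joined kinase cannot be told apart. The arrays of Alpha1 at low glucose were the most scattered group, with a median SD per gene of 0.22, against 0.10 to 0.13 in the other 5 groups. Its replicate 3 had the highest HSP12, HSP26, HSP30, HSP42 and HSP78 signals of its group, so results that rest on that array are given with and without it. The fit used 1 spread per gene for all groups, and each SE comes from that shared spread. Leaving out an array that is not in a comparison therefore changed the SE and adjusted p of that comparison, but not its difference. In Alpha1 at low glucose HSP12, HSP26 and HSP30 had SDs of 0.38, 0.61 and 0.83, above those of the other 5 groups. For such genes the intervals of comparisons with that group may be too narrow and the p-values too small. In the T210A strain the 261 measured genes of chromosome VIII had a median 0.74 above Snf1 at high and 0.57 above it at low glucose. No member lies on that chromosome, and the medians over their own chromosomes (II, III, IV, VI and XII, by the RefSeq annotation of assembly R64) were between -0.02 and 0.01 in these comparisons. Whether the higher chromosome VIII signals affected genes on other chromosomes was not tested. In every difference of T210A from another strain, they cannot be told apart from the T210A substitution.

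All 6 members rose at low glucose in all 3 strains, and no array at low glucose overlapped one at high glucose of the same strain. In Alpha1 6 of 6 were called higher (limma, adjusted p under 0.05), against 34.3% of all genes called higher and 29.2% called lower. In T210A 6 of 6 were called higher, against 37.7% higher and 32.8% lower among all genes. In Snf1 6 of 6 were called higher, against 34.7% higher and 32.7% lower. The median difference of the members was 3.23 in Alpha1, 3.39 in T210A and 3.58 in Snf1, while the medians over all genes were 0.03, 0.04 and 0.00 for the same strains. In these bulk cultures, more responding cells and more RNA per cell cannot be told apart. Every one of these 18 calls held under all 27 alternatives tried.

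**Figure D1:**
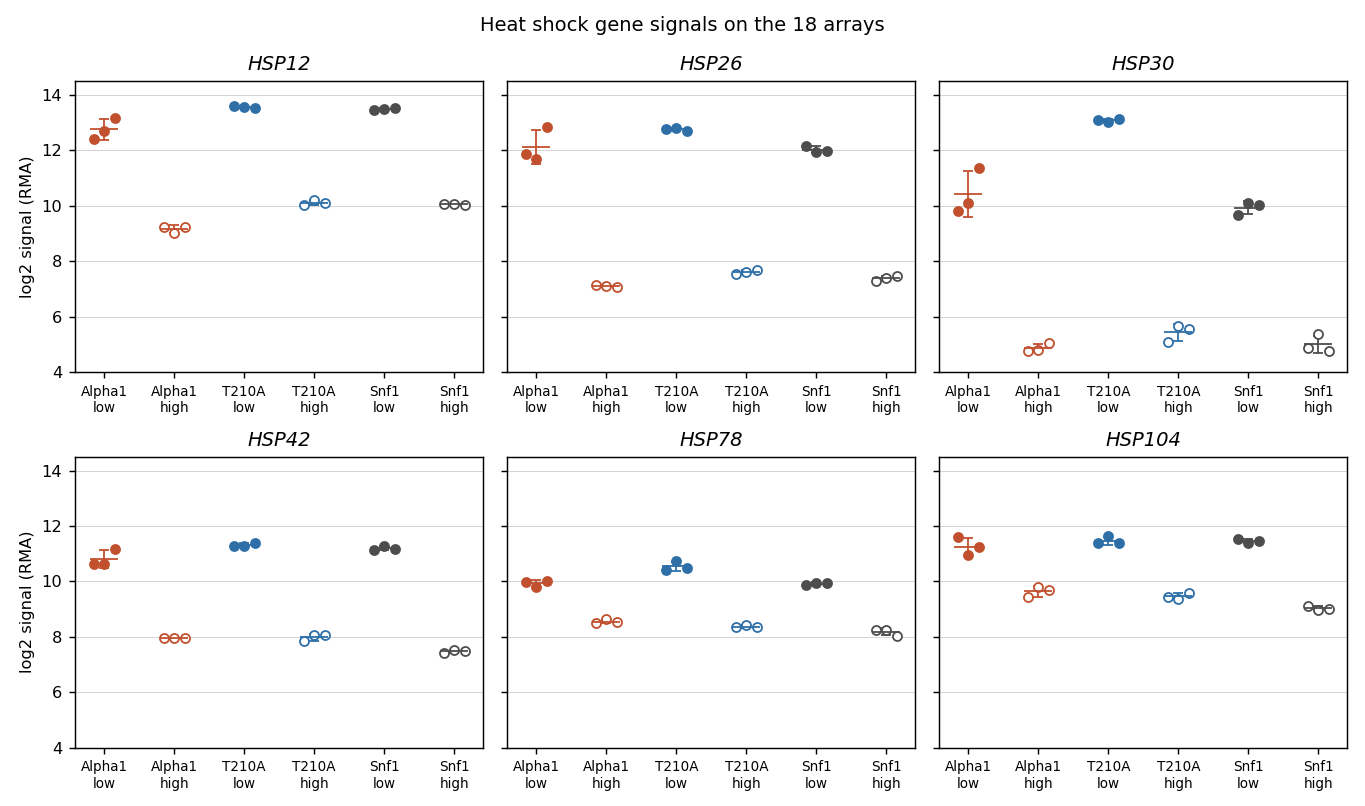
Log2 signal of each heat shock gene (y axis) on the 18 arrays, grouped by strain and glucose (x axis), with filled circles for low and open circles for high glucose and with the mean and SD of the 3 arrays. HSP30 in T210A at low glucose, at 13.03 to 13.15, stands above both other strains, and HSP12 in Alpha1 is below both at either glucose level.

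HSP30 (YCR021C, chromosome III) differed most between the strains. At low glucose it read 9.83, 10.09 and 11.37 in Alpha1, 13.08, 13.03 and 13.15 in T210A, and 9.65, 10.09 and 10.02 in Snf1. At high glucose the signals were 4.77, 4.79 and 5.03 in Alpha1, 5.07, 5.65 and 5.56 in T210A, and 4.88, 5.36 and 4.77 in Snf1. The T210A arrays at low glucose thus stood apart from all others, whereas Alpha1 and Snf1 overlapped at both levels and T210A overlapped Snf1 at high glucose. In the order of means T210A at low glucose (13.09 ± 0.06, SD, n = 3 as throughout) came first, followed by Alpha1 (10.43 ± 0.83) and Snf1 (9.92 ± 0.23) at low glucose, and then by T210A (5.43 ± 0.31), Snf1 (5.00 ± 0.31) and Alpha1 (4.87 ± 0.15) at high glucose. Neighbours in this order overlapped between Alpha1 and Snf1 at low glucose, between T210A and Snf1 at high glucose, and between Snf1 and Alpha1 at high glucose.

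The glucose response of HSP30 was 47.3-fold in Alpha1 (5.56 ± 0.31, SE of the fit), 202-fold in T210A (7.66 ± 0.31) and 30.2-fold in Snf1 (4.92 ± 0.31). In T210A it was the largest increase of all 5449 genes, and in Alpha1 and Snf1 it ranked 17 and 48 from the top. These folds and ranks rest on low signals at high glucose, 4.77 to 5.65, below the array medians of 6.77 to 7.03. Whether background signal affected them was not tested. At low glucose HSP30 was 8.96-fold higher in T210A than in Snf1 (3.16 ± 0.31, adjusted p = 1.59e-06) and 6.3-fold lower in Alpha1 than in T210A (-2.66 ± 0.31, adjusted p = 1.80e-05). The response itself was larger in T210A than in Snf1 by 2.74 ± 0.44 (adjusted p = 2.76e-04) and smaller in Alpha1 than in T210A (-2.09 ± 0.44, adjusted p = 0.0044). Between Alpha1 and Snf1 the difference at low glucose was 0.51 (95% interval -0.17 to 1.18), with 0.04 when replicate 3 of Alpha1 at low glucose was left out. At high glucose none of the 3 strain differences of HSP30 passed the test, the intervals being -0.81 to 0.54 for Alpha1 against Snf1, -0.25 to 1.10 for T210A against Snf1 and -1.24 to 0.11 for Alpha1 against T210A.

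HSP12 (YFL014W, chromosome VI) was lower in Alpha1 than in either other strain at both glucose levels. At low glucose it read 12.42, 12.68 and 13.17 in Alpha1, 13.59, 13.56 and 13.54 in T210A, and 13.46, 13.49 and 13.52 in Snf1. At high glucose it read 9.24, 9.01 and 9.23 in Alpha1, 10.03, 10.19 and 10.12 in T210A, and 10.07, 10.05 and 10.02 in Snf1. No Alpha1 array reached the lowest array of T210A or Snf1 at the same glucose level. The means ran from T210A at low glucose (13.57 ± 0.02) through Snf1 (13.49 ± 0.03) and Alpha1 (12.76 ± 0.38) at low glucose to T210A (10.12 ± 0.08), Snf1 (10.05 ± 0.02) and Alpha1 (9.16 ± 0.13) at high glucose. Only T210A and Snf1 at high glucose overlapped among these neighbours.

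At high glucose HSP12 was 1.85-fold lower in Alpha1 than in Snf1 (-0.89 ± 0.13, adjusted p = 0.0040) and 1.94-fold lower than in T210A (-0.95 ± 0.13, adjusted p = 3.92e-04). At low glucose the deficit was 1.66-fold against Snf1 (-0.73 ± 0.13, adjusted p = 9.58e-04) and 1.75-fold against T210A (-0.81 ± 0.13, adjusted p = 2.89e-04). The low-glucose call against Snf1 ended in a fit of those 6 arrays alone (adjusted p = 0.0856), and the difference was -0.94 without replicate 3 of Alpha1. HSP12 rose 12.1-fold in Alpha1 (3.60 ± 0.13), 10.9-fold in T210A (3.45 ± 0.13) and 10.9-fold in Snf1 (3.44 ± 0.13). The response in Alpha1 differed from that in Snf1 by 0.16 (95% interval -0.25 to 0.56), and that in T210A from that in Snf1 by 0.01 (-0.39 to 0.41), neither of which passed the test. At low glucose HSP12 lay 0.61 to 0.64 below the highest gene signal of its array in T210A and 0.73 to 0.81 below it in Snf1, and whether signals there were compressed was not tested.

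**Figure D2:**
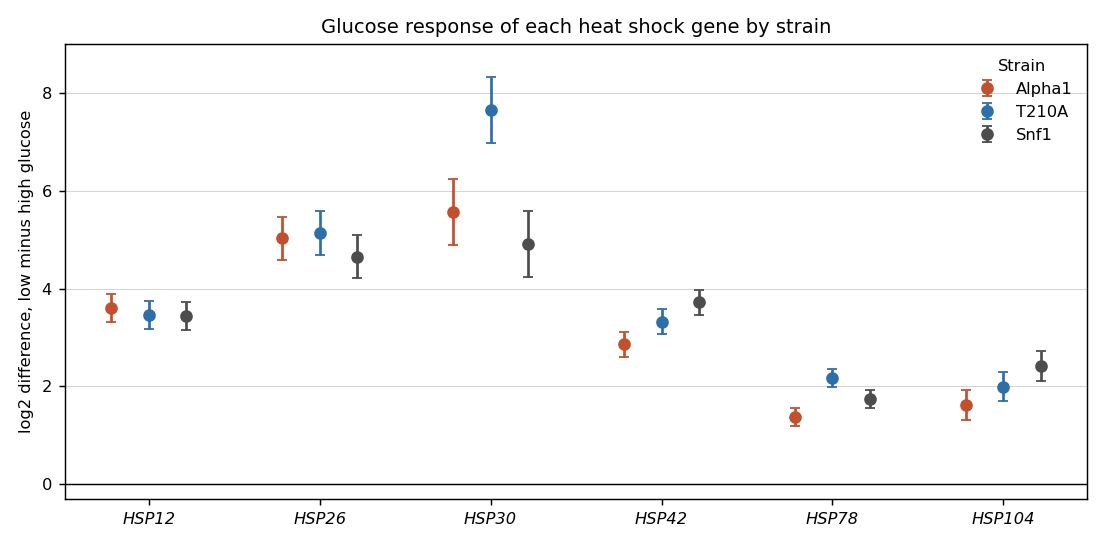
Difference between low and high glucose on the log2 scale (y axis) for each heat shock gene (x axis) in Alpha1, T210A and Snf1, with bars for the 95% interval of the fit. All points are above 0, HSP30 in T210A is the highest at 7.66, and the Alpha1 points of HSP42 and HSP104 lie below those of Snf1.

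HSP26 (YBR072W, chromosome II), the heat-activated small heat shock protein gene, rose 32.6-fold in Alpha1 (5.03 ± 0.20), 35.2-fold in T210A (5.14 ± 0.20) and 25.1-fold in Snf1 (4.65 ± 0.20). Its low-glucose signals were 11.87, 11.68 and 12.83 in Alpha1, 12.78, 12.79 and 12.69 in T210A, and 12.17, 11.95 and 11.96 in Snf1. Its high-glucose signals were 7.14, 7.11 and 7.05 in Alpha1, 7.54, 7.62 and 7.70 in T210A, and 7.29, 7.38 and 7.46 in Snf1. At low glucose replicate 3 of Alpha1 lay above all T210A arrays and the other two lay below all Snf1 arrays, while at high glucose the strains did not overlap and stood in the order T210A, Snf1, Alpha1. The means at low glucose were 12.13 ± 0.61 in Alpha1, 12.76 ± 0.06 in T210A and 12.03 ± 0.12 in Snf1, with overlap of Alpha1 with each neighbour. At high glucose they were 7.10 ± 0.04 in Alpha1, 7.62 ± 0.08 in T210A and 7.38 ± 0.08 in Snf1.

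At low glucose HSP26 was 1.66-fold higher in T210A than in Snf1 (0.73 ± 0.20, adjusted p = 0.0079). Alpha1 differed from Snf1 by 0.10 (95% interval -0.34 to 0.54), but by -0.25 with an adjusted p of 0.0275 when replicate 3 of Alpha1 at low glucose was left out. Alpha1 was 1.55-fold lower than T210A at low glucose (-0.63 ± 0.20, adjusted p = 0.0248), and -0.98 without that array. This call ended without replicate 1 (-0.50, adjusted p = 0.0935) or replicate 2 (-0.41, 0.103) of Alpha1 at low glucose, and without replicate 1 (-0.62, 0.0633) or replicate 2 (-0.61, 0.0641) of T210A at low glucose, and also with the compared groups alone (adjusted p = 0.218) or array weights (-0.36, 0.132). At high glucose Alpha1 lay 0.52 below T210A (-0.52 ± 0.20, adjusted p = 0.201). This difference passed with the compared groups alone (adjusted p = 0.0087), with array weights (-0.51, 0.0016) and without replicate 3 of Alpha1 at low glucose (4.74e-04). That array is not in the comparison, so leaving it out changed only the shared spread. With all arrays the glucose responses of HSP26 did not pass a test of difference between any pair of strains. The response of T210A minus Snf1 was 0.49 (95% interval -0.14 to 1.11). It passed with the compared groups alone (adjusted p = 0.0030), with array weights (0.55, 0.0029) and without that same array (0.0020). That of Alpha1 minus T210A was -0.11 (-0.74 to 0.51), but -0.46 with an adjusted p of 0.0081 without it. That of Alpha1 minus Snf1 was 0.37 (-0.25 to 1.00), and 0.03 without it, while with array weights it was 0.70 with an adjusted p of 0.0308.

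HSP42 (YDR171W, chromosome IV), whose product gathers misfolded proteins into cytosolic deposits, responded to glucose less in Alpha1 than it did in Snf1. With low glucose it read 10.63, 10.62 and 11.19 in Alpha1, 11.27, 11.28 and 11.40 in T210A, and 11.15, 11.30 and 11.17 in Snf1. At high glucose it read 7.96, 7.96 and 7.94 in Alpha1, 7.85, 8.06 and 8.05 in T210A, and 7.41, 7.53 and 7.50 in Snf1. The Snf1 arrays were the lowest at high glucose without overlap, and at low glucose the lowest arrays were replicates 1 and 2 of Alpha1. Mean signals at low glucose were 10.81 ± 0.32 in Alpha1, 11.31 ± 0.07 in T210A and 11.21 ± 0.08 in Snf1, each overlapping its neighbour in that order of size. Mean signals at high glucose were 7.95 ± 0.01 in Alpha1 and 7.99 ± 0.12 in T210A, which overlapped, and 7.48 ± 0.06 in Snf1.

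The increase of HSP42 at low glucose was 7.25-fold in Alpha1 (2.86 ± 0.12), 10.02-fold in T210A (3.32 ± 0.12) and 13.2-fold in Snf1 (3.73 ± 0.12). The Alpha1 response was smaller than that of Snf1 by 0.87 on the log2 scale (-0.87 ± 0.17, adjusted p = 0.0034), and it stayed so in every alternative, between -1.05 and -0.72. The T210A response differed from that of Snf1 by -0.40 ± 0.17 (adjusted p = 0.0751), and that of Alpha1 from T210A by -0.47 ± 0.17 (adjusted p = 0.0688). Without replicate 3 of Alpha1 at low glucose the first of these had an adjusted p of 0.0025 and the second was -0.65 with an adjusted p of 3.13e-04. The first also passed with the compared groups alone (0.0075), array weights (-0.36, 0.0052) and median centring (-0.48, 0.0302), and the second with quantile normalization (-0.59, 0.0258). At high glucose HSP42 was 1.42-fold higher in T210A than in Snf1 (0.51 ± 0.12, adjusted p = 0.0234) and 0.47 ± 0.12 above Snf1 in Alpha1 (adjusted p = 0.106). The T210A call ended when any of 5 of its 6 arrays was left out, with adjusted p-values of 0.107 and 0.106 without replicates 2 and 3 of T210A and of 0.111, 0.0543 and 0.0663 without replicates 1, 2 and 3 of Snf1, and it was 0.144 when chromosome VIII genes were left out. The Alpha1 difference passed without replicate 3 of Alpha1 at low glucose (adjusted p = 0.0017). It also passed with the compared groups alone (0.0189), array weights (0.50, 7.82e-04) and median centring (0.50, 0.044). At low glucose HSP42 was 1.31-fold lower in Alpha1 than in Snf1 (-0.39 ± 0.12, adjusted p = 0.0226) and 1.41-fold lower than in T210A (-0.50 ± 0.12, adjusted p = 0.0042). The gap to Snf1 did not pass without replicate 1 (-0.30, adjusted p = 0.0826) or 2 (-0.30, 0.0995) of Alpha1 or replicate 2 of Snf1 (-0.35, 0.0801), nor with the compared groups alone (adjusted p = 0.225) or array weights (-0.23, 0.235), and the gap to T210A did not pass in these last settings (adjusted p = 0.1 and -0.33, 0.0596).

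HSP104 (YLL026W, chromosome XII), the cytosolic disaggregase gene, followed HSP42 in this. At low glucose its signals were 11.59, 10.95 and 11.23 in Alpha1, 11.38, 11.62 and 11.39 in T210A, and 11.54, 11.37 and 11.46 in Snf1. At high glucose they were 9.42, 9.82 and 9.67 in Alpha1, 9.46, 9.36 and 9.60 in T210A, and 9.11, 8.98 and 9.01 in Snf1. All 3 strains overlapped at low glucose, and Snf1 lay below both others at high glucose. The low-glucose means were 11.26 ± 0.32 in Alpha1, 11.47 ± 0.14 in T210A and 11.46 ± 0.09 in Snf1. The high-glucose means were 9.64 ± 0.20 in Alpha1 and 9.47 ± 0.12 in T210A, which overlapped, and 9.03 ± 0.06 in Snf1.

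HSP104 rose 3.07-fold in Alpha1 (1.62 ± 0.14), 3.99-fold in T210A (1.995 ± 0.14) and 5.36-fold in Snf1 (2.42 ± 0.14). The Alpha1 response was below the Snf1 response by 0.80 (-0.80 ± 0.20, adjusted p = 0.0154), and the adjusted p was 0.0522 in a fit of these 4 groups alone. For T210A minus Snf1 the difference was -0.43 ± 0.20 (adjusted p = 0.108). It passed with the compared groups alone (0.014), with array weights (-0.45, 0.0014) and without replicate 1 of Alpha1 at low glucose (0.0392). For Alpha1 minus T210A it was -0.38 ± 0.20 (adjusted p = 0.214), and -0.55 with an adjusted p of 0.0315 without that array. At high glucose HSP104 lay 0.60 ± 0.14 above Snf1 in Alpha1 (adjusted p = 0.0736) and 0.44 ± 0.14 above it in T210A (adjusted p = 0.143). Without replicate 1 of Alpha1 at low glucose these had adjusted p-values of 0.0099 and 0.0351, and the first also passed without replicate 2 of that group (0.0187). With array weights they were 0.63 (adjusted p = 1.35e-04) and 0.40 (0.0028). The first passed as well with an intensity trend (0.0422) or dim genes left out (0.0439), and the second with the compared groups alone (0.045). At low glucose the difference was -0.20 for Alpha1 against Snf1 (95% interval -0.50 to 0.10), 0.01 for T210A against Snf1 (-0.29 to 0.31) and -0.21 for Alpha1 against T210A (-0.51 to 0.09). Without replicate 1 of Alpha1 at low glucose the gap of Alpha1 was -0.37 to Snf1 (adjusted p = 0.0327) and -0.38 to T210A (adjusted p = 0.0255).

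HSP78 (YDR258C, chromosome IV), the mitochondrial counterpart of HSP104, differed in which strain stood out. At low glucose it read 9.99, 9.79 and 10.02 in Alpha1, 10.42, 10.74 and 10.48 in T210A, and 9.86, 9.95 and 9.95 in Snf1. At high glucose it read 8.50, 8.63 and 8.52 in Alpha1, 8.34, 8.43 and 8.34 in T210A, and 8.26, 8.24 and 8.04 in Snf1. T210A stood above both other strains at low glucose, where Alpha1 and Snf1 overlapped, and at high glucose the 3 strains did not overlap, with Alpha1 the highest. Mean signals at low glucose were 9.93 ± 0.12 in Alpha1, 10.55 ± 0.17 in T210A and 9.92 ± 0.05 in Snf1. At high glucose they were 8.55 ± 0.07 in Alpha1, 8.37 ± 0.05 in T210A and 8.18 ± 0.12 in Snf1.

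The rise of HSP78 was 2.6-fold in Alpha1 (1.38 ± 0.09), 4.53-fold in T210A (2.18 ± 0.09) and 3.33-fold in Snf1 (1.74 ± 0.09). At low glucose HSP78 was 1.55-fold higher in T210A than in Snf1 (0.63 ± 0.09, adjusted p = 3.14e-05) and 1.53-fold lower in Alpha1 than in T210A (-0.62 ± 0.09, adjusted p = 7.81e-05). The T210A response exceeded the Snf1 response by 0.44 ± 0.12 (adjusted p = 0.0111), a call that ended with arrays centred on their medians (0.37, adjusted p = 0.0613). The Alpha1 response was smaller than the T210A response (-0.80 ± 0.12, adjusted p = 4.87e-04) in every alternative. Against Snf1 the Alpha1 response differed by -0.35 ± 0.12 (adjusted p = 0.0735), and it passed without replicate 3 of Alpha1 (-0.40, adjusted p = 0.0483) or replicate 2 of T210A (0.0352) at low glucose. It also passed with quantile normalization (-0.35, 0.049). At high glucose HSP78 was 0.37 ± 0.09 above Snf1 in Alpha1 (adjusted p = 0.0749), which passed without replicate 2 of Alpha1 (0.0372) or of T210A (0.0264) at low glucose. That difference passed as well with quantile normalization (0.38, 0.0321) and array weights (0.33, 0.00495).

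**Figure D3:**
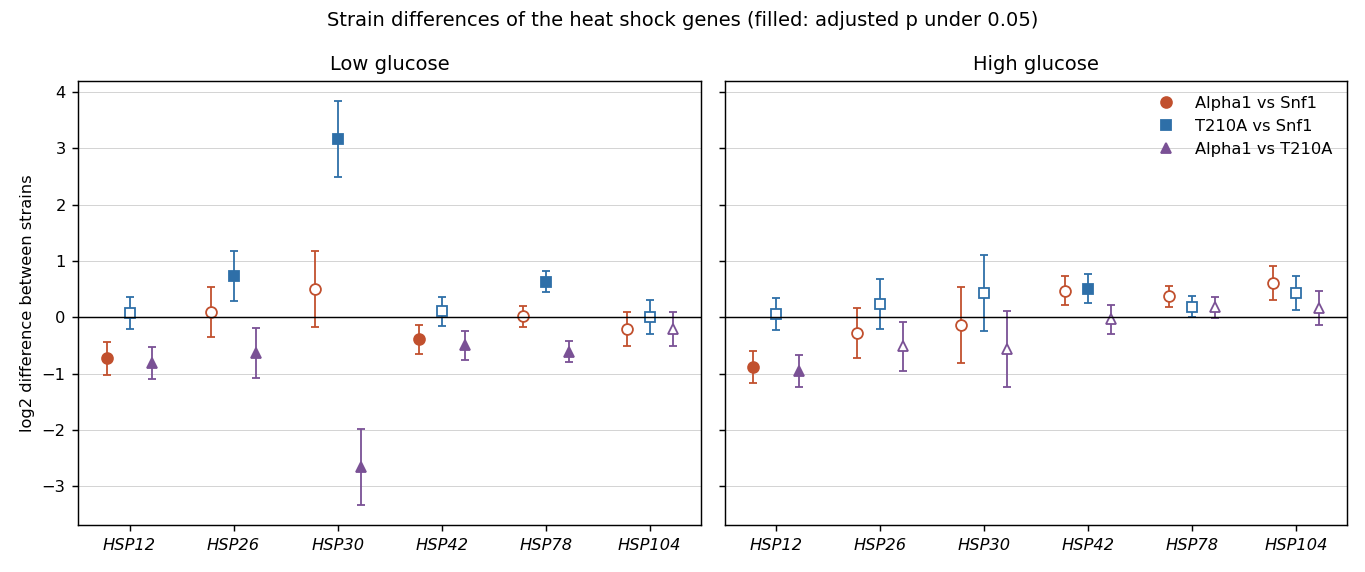
Difference between strains on the log2 scale (y axis) for each heat shock gene (x axis) at low glucose (left) and high glucose (right), with 95% intervals and filled symbols for an adjusted p under 0.05. HSP30 is 3.16 higher in T210A than in Snf1 at low glucose, and HSP12 is below 0 for Alpha1 against either strain at both levels.

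Counted over the members, Alpha1 against Snf1 gave no higher and 1 lower call at high glucose (HSP12), against 0.312% higher and 0.606% lower among all genes. At low glucose the same comparison gave no higher and 2 lower (HSP12 and HSP42), against 17.0% higher and 12.9% lower. T210A against Snf1 gave 1 higher (HSP42) and no lower at high glucose, against 3.56% higher and 0.624% lower. At low glucose it gave 3 higher (HSP26, HSP30 and HSP78) and no lower, against 29.7% higher and 26.5% lower. Alpha1 against T210A gave 1 lower (HSP12) and no higher at high glucose, against 4.81% lower and 1.5% higher, and 5 lower (all except HSP104) and no higher at low glucose, against 20.8% in each direction. For the glucose responses, 2 members (HSP42 and HSP104) had a smaller response in Alpha1 than in Snf1 and none a larger one, against 4.37% lower and 9.32% higher among all genes. Another 2 (HSP30 and HSP78) had a larger response in T210A than in Snf1 and none a smaller one, against 21.2% higher and 18.3% lower. The same pair had a smaller response in Alpha1 than in T210A and none a larger one, against 9.41% lower and 10.9% higher. With quantile normalization 512 genes had a larger and 421 a smaller response in Alpha1 than in Snf1, in place of 508 and 238. The comparisons share arrays with each other, and the member counts at low glucose are read against shares of this size.

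The members differed in how they moved within a glucose level, where the 9 arrays come from 3 strains. Over the 9 low-glucose arrays Pearson's r between members was highest for HSP12 with HSP42 (0.95) and for HSP30 with HSP78 (0.93) and lowest for HSP30 with HSP104 (0.12). Over the 9 high-glucose arrays HSP12 followed HSP26 (0.87) and ran against HSP78 (-0.75) and HSP104 (-0.64), while HSP78 and HSP104 followed each other (0.85). Over all 18 arrays every pair lay between 0.92 and 0.99, since the arrays share the step between glucose levels. These values describe arrays that share strain and glucose level.

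The genes most like each member were sought by Pearson's r over the 18 arrays. HSP12 was most like the stress gene DDR2 (0.99), YLR257W (0.99) and NTH1, which encodes neutral trehalase (0.99). HSP26 was nearest to SYM1, encoding a mitochondrial membrane protein (0.99), YBR053C (0.99) and the aminotransferase gene UGA1 (0.99). For HSP30 the nearest were PHM8, a phosphatase gene (0.99), the catalase gene CTT1 (0.99) and URA10 of pyrimidine synthesis (0.99). HSP42 came closest to the mitochondrial carrier gene PIC2 (0.997), SYM1 (0.99) and the kinase gene YAK1 (0.99). HSP78 was nearest to the chaperone genes SSE2 (0.99) and SSA4 (0.99) and to YLR031W (0.99), and HSP104 to HSP42 (0.98), CYC7, which encodes a cytochrome c (0.98), and FYV10 (0.98). Many genes shared the glucose step, and between 131 (HSP104) and 392 (HSP42) genes had an r above 0.95 with a member. Within the 9 low-glucose arrays r stayed at 0.98 for HSP30 with both PHM8 and CTT1 and at 0.97 for HSP78 with SSE2 and SSA4, but was 0.32 for HSP104 with HSP42. Within the 9 high-glucose arrays r was 0.56 for HSP30 with PHM8 and 0.43 with CTT1. There it was 0.92 for HSP78 with SSE2, 0.75 with SSA4, and 0.82 for HSP104 with HSP42.

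**Figure D4:**
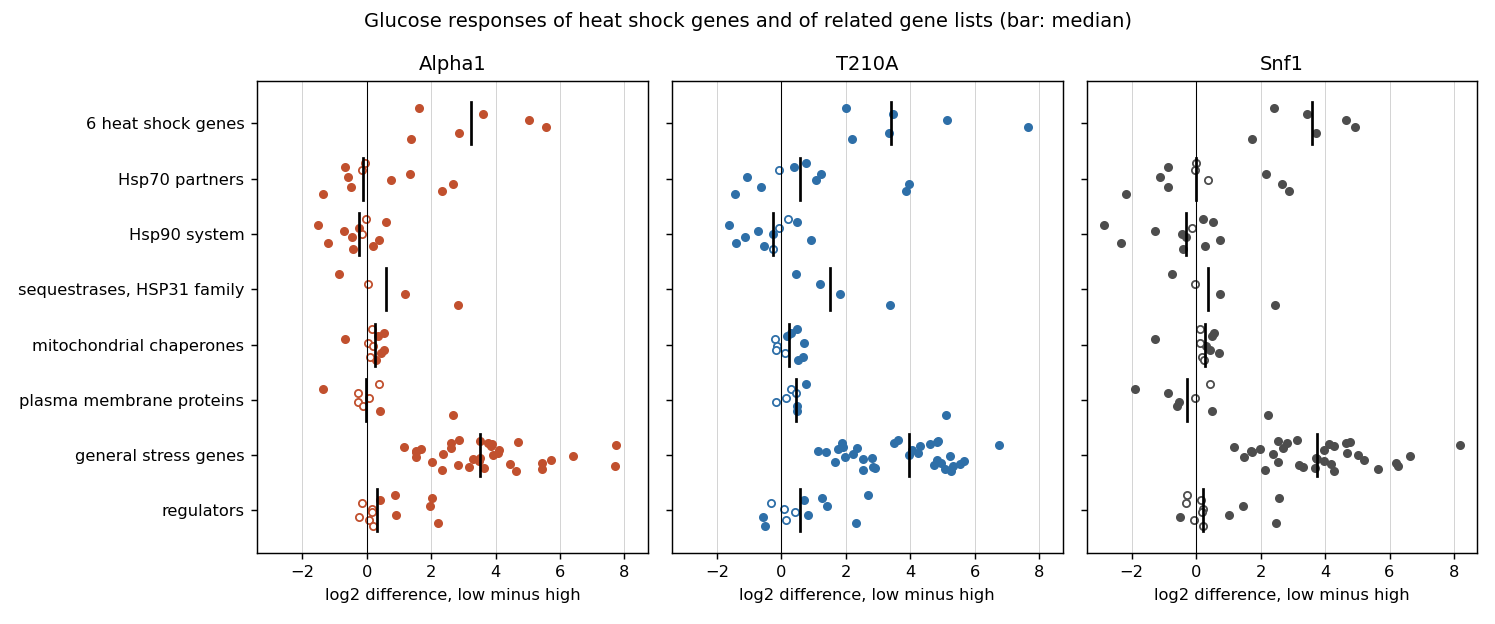
Difference between low and high glucose on the log2 scale (x axis) for the 6 heat shock genes and the measured genes of 7 related lists (rows) in Alpha1, T210A and Snf1, with filled circles for an adjusted p under 0.05 and a bar at the median. The heat shock and general stress genes lie wholly above 0. The other chaperone lists fall on both sides of it, except the sequestrase and HSP31 family list in T210A, which lies above 0.

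Related genes were read from 7 lists, which were chosen with earlier results of these data known. Their counts are counts of called genes and are read against the shares of all genes called. For low against high glucose these were 34.3% higher and 29.2% lower in Alpha1 and 37.7% and 32.8% in T210A. In Snf1 they were 34.7% and 32.7%. At low glucose they were 17.0% and 12.9% for Alpha1 against Snf1 and 29.7% and 26.5% for T210A against Snf1. Alpha1 against T210A had 20.8% in each direction. The general stress genes moved with the members, and all 33 were called higher at low glucose in each strain, with medians of 3.52 in Alpha1, 3.95 in T210A and 3.75 in Snf1. GPH1, which encodes glycogen phosphorylase, rose by 7.75 ± 0.24 in Alpha1, 6.74 ± 0.24 in T210A and 8.18 ± 0.24 in Snf1. In Alpha1 at low glucose 9 of the 33 were called lower than in Snf1 and none higher (median -0.42). Among the 9 were OM45 (-1.28 ± 0.28) and MSC1 (-1.01 ± 0.31), and without replicate 3 of Alpha1 26 were called lower. With the compared groups alone neither OM45 (adjusted p = 0.144) nor MSC1 (0.249) passed. MSC1 also missed the threshold with array weights (-0.59, adjusted p = 0.134), without replicate 1 (-0.65, 0.0945) or 2 (-0.84, 0.0968) of Alpha1 at low glucose, and without any 1 of the Snf1 arrays at low glucose (adjusted p of 0.0574, 0.0632 and 0.062). In T210A against Snf1 at low glucose 10 were higher and 10 lower (median -0.04), which is near the shares of all genes. CTT1 was 4.69-fold higher (2.23 ± 0.32, adjusted p = 4.17e-05) and TMA10 3.33-fold lower (-1.73 ± 0.21). At high glucose TMA10 was the single gene called in Alpha1 against Snf1, 3.64-fold lower (-1.86 ± 0.21), and 5 of the 33 were higher and 1 lower in T210A, with 1 higher and none lower when chromosome VIII was left out, which holds GRE3, RTC3 and SOD2. Of all genes 3.56% were higher and 0.624% lower in T210A against Snf1 at high glucose.

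The Hsp70 partners, which feed Hsp104 with substrate, moved in both directions. Of 10 measured genes 4 rose and 4 fell in Alpha1 (median -0.10), 6 rose and 3 fell in T210A (0.59), and 3 rose and 4 fell in Snf1 (-0.01). The stress Hsp70 gene SSA4 rose 6.45-fold in Alpha1 (2.69 ± 0.18), 15.6-fold in T210A (3.97 ± 0.18) and 6.31-fold in Snf1 (2.66 ± 0.18). SSE2, an Hsp110 gene, rose 5.11-fold, 14.7-fold and 7.3-fold in the same strains, while the J-protein gene YDJ1 fell by 1.35 ± 0.21 in Alpha1, 1.43 ± 0.21 in T210A and 2.18 ± 0.21 in Snf1. At low glucose 6 of the 10 were higher and 1 lower in T210A than in Snf1 (median 0.74), among them SSA4 (2.63-fold, 1.39 ± 0.18, adjusted p = 1.91e-05) and SSE2 (2.41-fold, 1.27 ± 0.13). In Alpha1 against Snf1 at low glucose 4 were higher and none lower (median 0.31), including YDJ1 (0.89 ± 0.21) and SSA2 (0.72 ± 0.18), of which neither passed with the compared groups alone (adjusted p = 0.131 and 0.163) and YDJ1 not with array weights (0.58, 0.062). At high glucose SSA1 was the only one of the 10 called in Alpha1 against Snf1, 1.84-fold higher (0.88 ± 0.11, adjusted p = 7.09e-04).

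Of 11 genes of the Hsp90 system 3 rose and 6 fell in Alpha1, 2 rose and 6 fell in T210A, and 4 rose and 6 fell in Snf1. The cochaperone gene CNS1 fell by 1.50 ± 0.13 in Alpha1, 1.64 ± 0.13 in T210A and 2.85 ± 0.13 in Snf1. HSP82, the stress-inducible Hsp90 gene, was called higher at low glucose in all 3 strains, by 0.93 ± 0.09 in T210A and 0.75 ± 0.09 in Snf1. It was also 1.49-fold higher in Alpha1 than in Snf1 at high glucose (0.58 ± 0.09, adjusted p = 0.0093), a call that ended without replicate 2 of Alpha1 at high glucose (adjusted p = 0.0546) and with the compared groups alone (0.0671).

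Among genes of protein sequestration and the HSP31 family 4 of 6 were measured, and 2 rose and 1 fell in Alpha1, 4 rose in T210A, and 2 rose and 1 fell in Snf1. SNO4 rose 7.08-fold in Alpha1, 10.3-fold in T210A and 5.44-fold in Snf1, and its signal is uncertain because HSP32 and HSP33 are near-identical copies of it. BTN2, whose product gathers misfolded proteins, was higher at low glucose in T210A (0.46 ± 0.17, adjusted p = 0.0294) and lower in Alpha1 (-0.86 ± 0.17) and Snf1 (-0.75 ± 0.17). The T210A rise of BTN2 did not pass without replicate 1 (0.42, adjusted p = 0.0795) or 3 (0.44, 0.0699) of T210A at high glucose or replicate 1 (0.41, 0.0851) or 2 (0.39, 0.0973) at low glucose, nor with quantile normalization (0.0764) or median centring (0.0884). At low glucose all 4 were higher in T210A than in Snf1 (median 1.21), among them CUR1 (2.59-fold, 1.38 ± 0.18) and BTN2 (2.37-fold, 1.24 ± 0.17). The same 4 were all lower in Alpha1 than in T210A at low glucose, with SNO4 at -1.31 ± 0.19.

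Mitochondrial chaperone and protease genes moved less than HSP78. Of 10, 5 rose and 1 fell in Alpha1, 6 rose and none fell in T210A, and 5 rose and 1 fell in Snf1, with medians of 0.25, 0.24 and 0.28, and in T210A the counts were 5 and 2 with quantile normalization and 4 and 2 with median centring. HSP10, the gene of the Hsp60 cochaperonin, rose by 0.55 ± 0.07 in Alpha1 and 0.54 ± 0.07 in Snf1, and MDJ1, the J-protein gene of the matrix, by 0.71 ± 0.11 in T210A. At low glucose 5 were higher and 5 lower in T210A than in Snf1, with MCX1 2.15-fold higher (1.10 ± 0.11) and the protease gene PIM1 1.57-fold lower (-0.65 ± 0.10).

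Of 8 plasma membrane genes that are relatives or neighbours of HSP30 in function, 2 rose and 1 fell in Alpha1, 4 rose in T210A, and 2 rose and 4 fell in Snf1. YRO2, a relative of HSP30, rose 6.46-fold in Alpha1 (2.69 ± 0.26), 34.7-fold in T210A (5.12 ± 0.26) and 4.71-fold in Snf1 (2.24 ± 0.26). At low glucose YRO2 was 10.7-fold higher in T210A than in Snf1 (3.42 ± 0.26, adjusted p = 1.44e-07) and 5.28-fold lower in Alpha1 than in T210A (-2.40 ± 0.26). PDR12, which encodes an exporter of weak acids, was 5.39-fold higher in T210A than in Snf1 at low glucose (2.43 ± 0.25), and 5 of the 8 were higher and none lower there (median 0.80). In Alpha1 against Snf1 at low glucose 4 were higher and none lower, among them PDR12 (3.02-fold, 1.59 ± 0.25) and YRO2 (2.03-fold, 1.02 ± 0.26), whose call ended with the compared groups alone (adjusted p = 0.0931).

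Among 12 regulator genes 6 rose in Alpha1, 6 rose and 2 fell in T210A, and 4 rose and 1 fell in Snf1 (5 and 2 with the replicate number as a block). The kinase gene YAK1 rose by 2.22 ± 0.13 in Alpha1, 2.32 ± 0.13 in T210A and 2.48 ± 0.13 in Snf1, and the stress activator gene MSN4 by 1.97 ± 0.12, 1.41 ± 0.12 and 1.45 ± 0.12. HSF1, named here after its values were seen, was higher at low glucose in T210A (0.71 ± 0.13, adjusted p = 2.47e-04) and in Alpha1 (0.42 ± 0.13, adjusted p = 0.0127), and its difference in Snf1 was 0.16 ± 0.13 (adjusted p = 0.284). The Alpha1 call of HSF1 ended without replicate 1 of Alpha1 at high glucose (0.35, adjusted p = 0.0547) or replicate 2 at low glucose (0.26, 0.063), and with the compared groups alone (0.123). At low glucose HSF1 was 0.50 ± 0.13 above Snf1 in T210A (adjusted p = 0.0050), and COM2, which encodes a zinc-finger protein, was 8.27-fold higher there (3.05 ± 0.27). SKN7, a regulator gene on chromosome VIII, was 1.9-fold higher in T210A than in Snf1 at high glucose (0.92 ± 0.18), beside a median of 0.74 over that chromosome.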

How the data were processed

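Each probe set has 1 deposited log2 value per array. The submitters' processing notes name affy and RMA, with no version. Array medians ran from 6.77 to 7.03 and no 2 arrays had the same distribution over the listed probe sets, so the steps between RMA and these values are not fully known. The table held 5716 probe sets, of which 5498 named 1 gene, none several and 218 none by GEO's platform annotation, and 12 symbols were updated through RefSeq. The probe set with the highest mean stood for each of 47 genes with several, which left 5449 genes. No detection calls or scanner files were used, and the number of arrays limits the precision.

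A mean per group was fitted to all 18 arrays with limma 3.58.1 in R 4.3.3 (12 residual degrees of freedom, prior 1.18). The 12 comparisons were each adjusted by Benjamini-Hochberg over all genes, with calls at 0.05. The procedure was tested on simulated data in which each gene had the same spread in all groups. That test does not cover the wider scatter of Alpha1 at low glucose. The members, the lists and the tests were chosen with earlier results of these data known. By rule the text names the 6 members, SNF1, up to 4 called genes of each list with the largest differences per glucose response and up to 2 in other comparisons, and the 3 genes most like each member. A promoter motif search that had been planned was not run, since no sequence was used here.

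The labels give each group replicates 1, 2 and 3. Deviations of equally numbered arrays from their group means correlated above 0.1 for all 3 numbers in 8 of 15 pairs of groups, which pairs the arrays in 5 of the 12 comparisons (low against high glucose in Alpha1 and in Snf1, T210A against Snf1 at both levels, and Alpha1 against T210A at low glucose). Alternatives were an intensity trend with a robust prior, the compared groups alone, the replicate block, quantile normalization, median centring, omission of genes with a mean under 5, the mean of all probe sets, array weights, omission of chromosome VIII genes and omission of each array.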

Additional observations from a re-analysis of the deposited data

Results flagged for a closer look

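For 4 members the response to low glucose differed between strains by a test of the difference itself, with limma and adjustment over all 5449 genes. Each comparison of responses called 2 of the 6 members. Over all genes 13.7% were called for Alpha1 minus Snf1, 39.5% for T210A minus Snf1 and 20.3% for Alpha1 minus T210A. HSP42 and HSP104 responded less in Alpha1 than in Snf1, by -0.87 (adjusted p = 0.0034) and -0.80 (adjusted p = 0.0154) on the log2 scale. The HSP104 call ended with the compared groups alone (adjusted p = 0.0522). HSP30 and HSP78 responded more in T210A than in Snf1, by 2.74 (adjusted p = 2.76e-04) and 0.44 (adjusted p = 0.0111). The HSP78 call ended with median centring (0.37, adjusted p = 0.0613). Both HSP30 and HSP78 responded less in Alpha1 than in T210A, by -2.09 for HSP30 (adjusted p = 0.0044) and -0.80 for HSP78 (adjusted p = 4.87e-04). The differences of HSP42 between Alpha1 and Snf1 within a glucose level depended on the setting. At high glucose 0.47 was not called (adjusted p = 0.106), but it passed with the compared groups alone (0.0189), array weights (0.50, 7.82e-04) and median centring (0.50, 0.044). The call of -0.39 at low glucose was lost with the compared groups alone (adjusted p = 0.225), with array weights (-0.23, 0.235) and without 3 of the arrays in turn.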

How the results depend on the processing

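The 72 results of the members (12 comparisons) were recomputed under 27 alternatives, 18 of which leave out 1 array, and 39 kept their direction and side of the threshold in all of them. The called low-glucose increases changed in none. Members called in Alpha1 against Snf1 at high glucose were 1, but 2 with the compared groups alone, median centring, dim genes left out, quantile normalization or an intensity trend, 4 with array weights, and 1 to 3 with 1 array left out. For T210A against Snf1 at high glucose they were 1, but 2 with the compared groups alone or array weights, 0 without chromosome VIII genes and 0 to 2 with 1 array left out. For Alpha1 against T210A at high glucose they were 1, but 2 with the compared groups alone, 4 with array weights and 1 to 2 with 1 array left out. At low glucose the 2 of Alpha1 against Snf1 became 0 with the compared groups alone, 1 with array weights and 1 to 3 with 1 array left out, and the 5 of Alpha1 against T210A became 3 in both of these settings and 4 to 5 with 1 array left out. For the responses, the 2 of Alpha1 minus Snf1 became 1 with the compared groups alone and 2 to 3 with 1 array left out, the 2 of T210A minus Snf1 became 5 with the compared groups alone or array weights and 2 to 4 with 1 array left out, and the 2 of Alpha1 minus T210A 2 to 4 with 1 array left out. Genes called in Alpha1 against Snf1 at high glucose were 50, but 85 with median centring, 396 with array weights and 19 to 112 with 1 array left out. In T210A against Snf1 at high glucose they were 228, but 18 without chromosome VIII genes and 572 with array weights, and in Alpha1 against T210A 344, but 80 and 1241 in these settings. With the compared groups alone 603 genes were called, in place of 1632, for Alpha1 against Snf1 at low glucose, 1244 in place of 2263 for Alpha1 against T210A, and 491 in place of 746 for the response of Alpha1 minus Snf1, which gave 587 to 1158 with 1 array left out. The response of T210A minus Snf1 gave 3252 with array weights, in place of 2153. Differences that changed sign had not passed the test, except that of ECM10 between low and high glucose in T210A, -0.055 with quantile normalization. With array weights HSP30 in Alpha1 against Snf1 (0.016) and HSP42 in Alpha1 against T210A (0.027) at high glucose, HSP104 in T210A against Snf1 at low glucose (-0.041) and the HSP26 response of Alpha1 minus T210A (0.15) changed sign. With median centring, which moved the median of all genes by -0.11 between low and high glucose in T210A, HSP78 in Alpha1 against Snf1 (-0.013), HSP12 (-0.0010) and HSP104 (-0.066) in T210A against Snf1, all at low glucose, and the HSP12 response of T210A minus Snf1 (-0.065) did so. With 1 array left out, ranges that crossed 0 were -0.25 to 0.040 for HSP30 in Alpha1 against Snf1 and -0.10 to 0.0025 for HSP42 in Alpha1 against T210A at high glucose. At low glucose they were -0.25 to 0.32 for HSP26 and -0.028 to 0.086 for HSP78 in Alpha1 against Snf1, and -0.069 to 0.053 for HSP104 in T210A against Snf1. For the responses they were -0.047 to 0.33 (Alpha1 minus Snf1), -0.030 to 0.049 (T210A minus Snf1) and -0.058 to 0.32 (Alpha1 minus T210A) for HSP12, and -0.46 to 0.11 for HSP26 in Alpha1 minus T210A. With quantile normalization the plasma membrane genes called at low against high glucose were 2 higher and 2 lower in Alpha1 and 5 and 1 in T210A, and the regulators 6 and 1 in Alpha1 and 5 and 2 in Snf1. Without chromosome VIII genes the regulators were 6 and 1 in T210A and 4 and 0 in Snf1. The planned promoter motif search was not run. The cause of these changes was not tested.

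The fit with the replicate number as a block changed no call of a member in the 5 comparisons that the numbers pair. In the others the block brought the HSP42 response of T210A minus Snf1 (adjusted p = 0.0491) and of Alpha1 minus T210A (0.0411) past the threshold, and gave 543 genes called in Alpha1 against T210A at high glucose.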
